A study of Mus musculus with 23 samples.

Results

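Mature luminal cells from pregnant mice were compared with those from virgin mice. The comparison took every array labelled as mammary epithelial mature luminal cells from day 10, day 16 or day 19 of pregnancy, 4 arrays in all, against every such array from 3-week and 9-week virgins, 3 arrays in all. These are 7 of the 23 arrays of the series, assigned to the groups by their labels. All mice were C57BL/6 females, an inbred strain, and no transgene or drug was involved. The virgin arrays were 1 from mice of 3 weeks, which are before or at the start of puberty, and 2 from mice of 9 weeks. The pregnancy arrays were 2 from day 10, 1 from day 16 and 1 from day 19, and the age of the pregnant mice is not given in the labels. The cell type was assigned by purification, whose surface markers the labels do not describe. The labels also do not say whether arrays came from separate animals, so the spread behind the p-values may be technical. It was taken within the 7 groups of 2 arrays of the series, among them 9-week and day-10 mature luminal cells. Spread between stages is not part of it.

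Luminal cells line the ducts and alveoli of the mammary gland. In virgin glands the mature luminal compartment is known for cells that carry the oestrogen and progesterone receptors and pass hormonal signals to their neighbours through secreted factors. During pregnancy progesterone and prolactin drive the growth of alveoli, and prolactin acts through its receptor, the kinase Jak2, the transcription factor Stat5 and the ETS factor Elf5 to switch on milk protein and milk lipid genes.

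The deposited values are on a log2 scale, so a difference of 1 is a doubling of signal. Of 15378 genes tested with limma, 126 were higher in pregnancy (0.819% of those tested) and 463 were lower (3.01%) at a Benjamini-Hochberg adjusted p under 0.05, 589 in all (3.83%). The median difference over all genes was -0.19, and it was 0.0 after quantile normalization, which called 150 genes higher and 331 lower. The higher genes thus made up 21.4% of the calls as deposited and 31.2% after that normalization. With arrays titled replicate 1 set against all others as a block, 442 genes were higher (2.87%) and 1244 lower (8.09%), including all 126 and all 463. The 3-week and day-16 titles carry no replicate number. A block on numbered arrays only, which leaves those arrays out, called 317 genes higher and 523 lower, including 109 of the 126 and 318 of the 463. Below, the replicate block is the one over all arrays. Without the 9-week replicate 2 array 365 genes passed, and without the day-16 array 300 passed. The 4 pregnancy arrays lay above all 3 virgin arrays for 500 genes (3.25%) and below them for 1481 (9.63%). All 126 higher genes and 462 of the 463 lower genes moved the same way in the arrays titled replicate 1 and in the remaining ones. The same arrays chose these genes, so such agreement was largely set in advance and is not a replication.

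**Figure D1:**
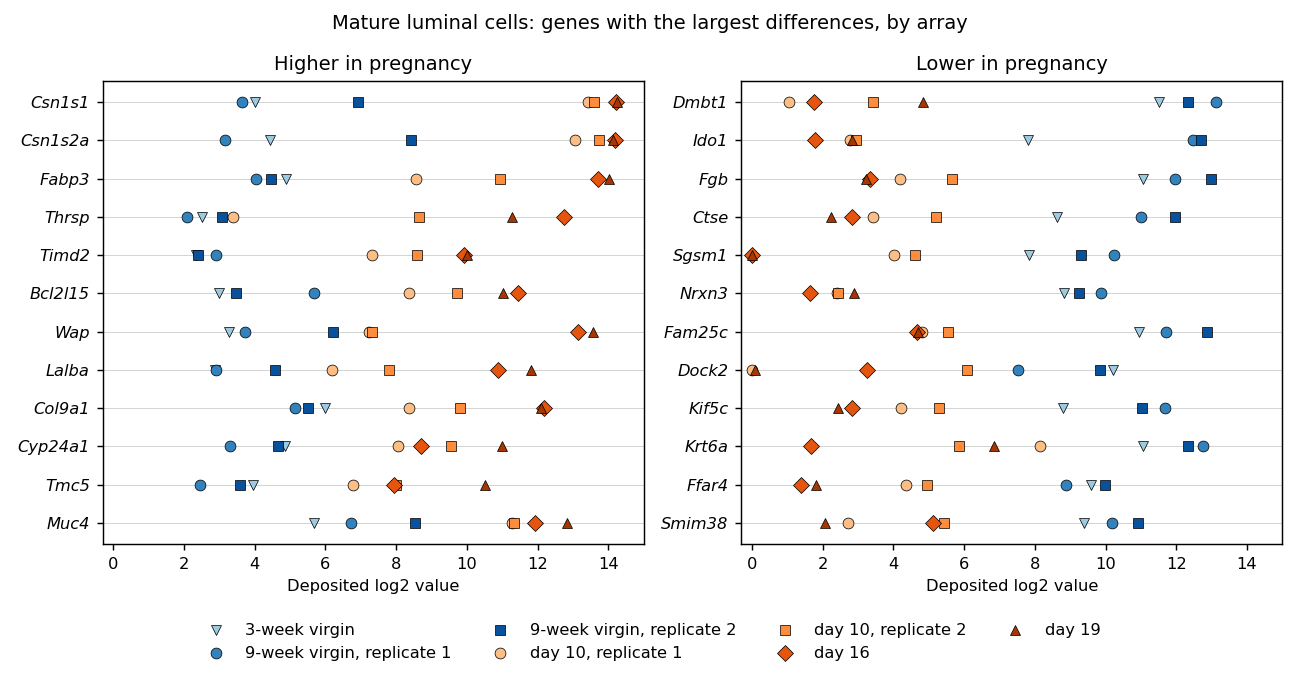
Deposited log2 value (horizontal axis) of the 12 genes with the largest rise and the 12 with the largest fall that met the naming rule, 1 row per gene and 1 symbol per mature luminal array (blue, 3 virgin arrays; orange, 4 pregnancy arrays). In each row the 2 colours do not overlap, from Csn1s1 with virgin values up to 6.93 and pregnancy values from 13.42, to Dmbt1 with virgin values from 11.50 and pregnancy values up to 4.84.

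The cells carried luminal markers at both states. Krt8, a keratin of luminal cells, read between 13.67 and 13.83 on all 7 arrays, and the adhesion genes Epcam and Cdh1 never read below 12.45. Gata3, a luminal fate regulator, read between 9.82 and 11.22. Esr1, Pgr and Foxa1, which also define mature luminal cells, were lower on every pregnancy array and are described below. The receptor gene Prlr was not analysed here. Lists of markers of other cells had lower and uneven means, but single basal genes were high. Krt14 read between 10.26 and 12.88 on the 7 arrays. Krt5 read 11.17 on the 3-week and 11.81 on the 9-week replicate 1 array, and 5.67 to 9.30 on the others. Trp63 read 10.91 and 11.54 on those arrays and 6.43 to 9.36 on the others, while Myh11 read 4.13 to 8.17. The mean of 16 leukocyte markers was 8.75 on the 3-week array, 4.47 and 5.87 on the 9-week arrays, 3.55 and 6.68 on the day-10 arrays, 4.61 at day 16 and 2.96 at day 19. The 12 fibroblast and stromal markers averaged 7.05 on the 3-week array and between 3.75 and 5.81 on the others. The 12 endothelial markers averaged 5.75 to 7.96 on virgin and 4.96 to 6.48 on pregnancy arrays, and the 18 basal and myoepithelial markers 6.59 to 8.97 and 7.36 to 8.87. No member of these lists was at 0 on any of the 7 arrays. The 3-week array was highest for each of these 4 lists, and its Gapdh signal was 5.16 log2 units higher at the 3′ than at the 5′ end, against 0.98 to 1.53 on the other 6, an excess usually read as RNA degradation. In a sorted population of this kind fewer cells of a type and less RNA per cell cannot be told apart.

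**Figure D2:**
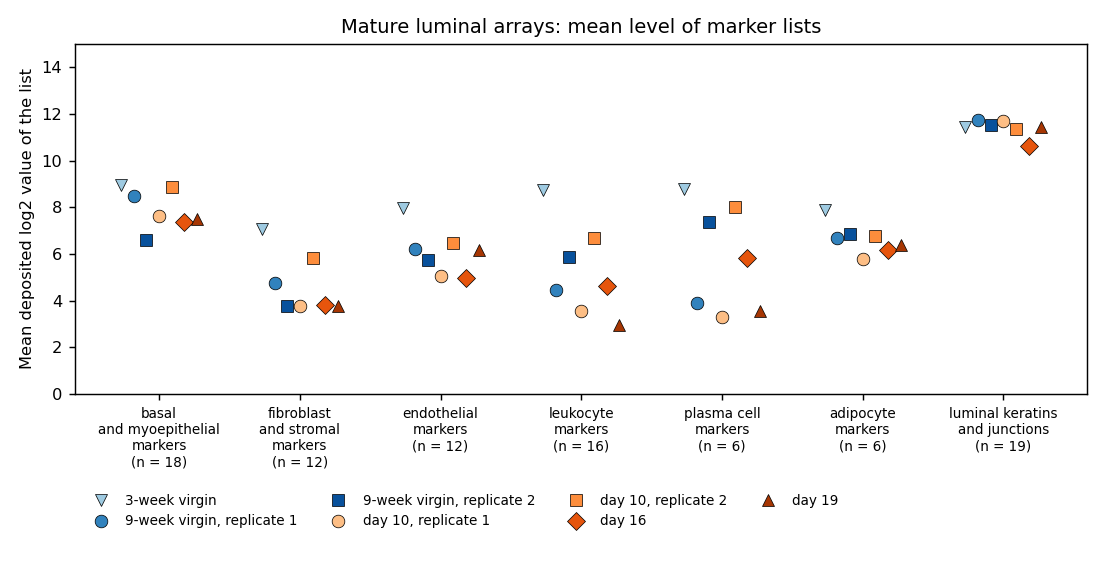
Mean deposited log2 value (vertical axis) of 6 lists of markers of other cells and of the luminal keratin and junction list (horizontal axis, number of genes tested in parentheses), 1 symbol per mature luminal array. The 3-week array (pale triangle) is the highest symbol of every list but the last, where the 7 arrays lie between 10.62 and 11.74.

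Leaving out that array and the day-10 replicate 2 array, which had the highest leukocyte mean in pregnancy, 84 genes were higher and 235 lower. Among the marker lists of other cells the call rule passed 0 of 16 leukocyte, 0 of 12 fibroblast, 0 of 12 endothelial, 0 of 6 plasma cell and 0 of 3 erythroid genes. Over all genes it passed 3.83%, so a count of 0 in lists this short says little about these cells. In the basal list it passed only Vim, an intermediate filament gene also found in fibroblasts and leukocytes, which fell by 1.08 ± 0.27 (adjusted p = 0.048). The call for Vim was lost without the 3-week, the 9-week replicate 1, the day-16 or the day-19 array, with an adjusted p of up to 0.642. Krt5 and Krt14, the basal keratins, differed by -2.20 ± 0.97 (adjusted p = 0.287) and -1.1 ± 0.52 (adjusted p = 0.321). The block on replicate number called 4 basal genes lower, namely Krt5, Snai2, Vim and Col17a1, 4 leukocyte genes, namely Ptprc, Cd79a, Cd79b and Laptm5, the fibroblast gene Dcn and the erythroid gene Slc4a1, and 0 endothelial or plasma cell genes. With that block 8.09% of all genes were lower. The leukocyte markers had a median difference of -2.15 over the 16 genes, against -0.19 for all genes. Their part in the genes that fell was not tested.

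Milk protein genes held the largest rises. Of the 10 tested, 6 were higher and 0 lower (0.819% of all genes were higher), with a median difference of 5.28, and 8 had all pregnancy arrays above all virgin arrays. The caseins form the micelles of milk. Csn1s1, the alpha-S1 casein, read 4.0 on the 3-week array and 3.65 and 6.93 on the 9-week arrays, then 13.42 and 13.59 at day 10, 14.22 at day 16 and 14.23 at day 19. All pregnancy arrays lay far above all virgin arrays, by 9.01 ± 0.92 (limma, adjusted p = 0.000331), and the difference was 10.17 among arrays titled replicate 1 and 8.44 among the rest. Csn1s2a, the alpha-S2 casein, read 4.43, 3.16 and 8.41 on the virgin arrays and 13.06 to 14.18 in pregnancy, a rise of 8.44 ± 1.48 (adjusted p = 0.00944). Its virgin values spread widely, with the 9-week replicate 2 array highest, as for the other caseins. Further probe sets of Csn1s2a gave differences from 0.83 to 9.56. Csn2, the beta casein, read 4.92, 3.28 and 9.39 on the virgin arrays and 13.25, 13.71, 13.95 and 13.81 in pregnancy. Its difference of 7.82 ± 1.97 had an adjusted p of 0.05002, just above the threshold, and of 0.000903 with the replicate block. Csn3, the kappa casein that stabilises the micelle, was already high at 11.60, 11.82 and 12.42 in virgins and rose by 1.92 ± 0.22 (adjusted p = 0.00071) to between 13.61 and 14.06. The highest value of any gene on the 7 arrays was 14.23, so casein values in pregnancy stood at the top of the scale.

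Wap and Lalba, both genes of whey proteins, were at their highest in late pregnancy. Wap, the whey acidic protein, read 3.27, 3.74 and 6.21 in virgins, 7.24 and 7.32 at day 10, 13.14 at day 16 and 13.57 at day 19. Its rise was 5.91 ± 0.64 (adjusted p = 0.000506), and most of it lay between day 10 and day 16, each later stage being 1 array. Lalba, the alpha-lactalbumin that turns galactosyltransferase into lactose synthase, followed the same order with 2.88, 2.90 and 4.58 in virgins, 6.20 and 7.79 at day 10, 10.89 at day 16 and 11.82 at day 19 (5.72 ± 0.99, adjusted p = 0.0088). Cel, the bile salt-activated lipase of milk, read 4.56 to 5.07 in virgins and 7.10, 8.18, 10.21 and 12.30 in pregnancy (4.55 ± 0.58, adjusted p = 0.00142). Csn1s2b, chosen after its values were seen, was at 13.70 on the day-19 array only, against 1.85 to 9.84 on the other 6. Its difference was 4.83 ± 1.22 (adjusted p = 0.0511, and 0.00221 with the replicate block). Glycam1, a milk mucin, and Wfdc18, a whey-type protein, also chosen after their values were seen, were near the top of the scale in virgins too. Glycam1 read 12.91 to 13.85 in virgins and 12.55 to 14.23 in pregnancy, and Wfdc18 read 13.09 to 13.96 and 14.05 to 14.10. Neither passed, with differences of 0.15 ± 0.61 (adjusted p = 0.939) and 0.53 ± 0.20 (adjusted p = 0.199).

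The promoters of milk genes are known as targets of Stat5, whose palindromic site reads TTCNNNGAA and is the same on both strands. The 250 bases before the transcription start are shown for 4 genes because they hold this motif (capitals) and the genes moved in different ways. Csn1s1 and Csn2 are caseins with large rises, Glycam1 did not pass, and Fgb, the fibrinogen beta chain, had one of the largest falls. Sequences are from RefSeq on GRCm38.p6, read 5′ to 3′ on the gene's strand. The windows are chr5:87665958-87666207 on the plus strand for Csn1s1, chr5:87699426-87699675 on the minus strand for Csn2, chr15:103565082-103565331 on the minus strand for Glycam1 and chr3:83049864-83050113 on the minus strand for Fgb.
Csn1s1: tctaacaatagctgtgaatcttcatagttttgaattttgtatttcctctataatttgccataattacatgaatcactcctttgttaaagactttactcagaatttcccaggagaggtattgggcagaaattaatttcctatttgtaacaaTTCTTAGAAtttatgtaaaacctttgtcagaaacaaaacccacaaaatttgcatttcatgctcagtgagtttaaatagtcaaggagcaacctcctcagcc
Csn2: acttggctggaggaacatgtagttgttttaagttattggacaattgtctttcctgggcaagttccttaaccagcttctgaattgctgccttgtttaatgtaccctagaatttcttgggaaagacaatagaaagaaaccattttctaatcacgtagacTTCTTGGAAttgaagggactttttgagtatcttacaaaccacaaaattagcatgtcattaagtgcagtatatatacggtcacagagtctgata
Glycam1: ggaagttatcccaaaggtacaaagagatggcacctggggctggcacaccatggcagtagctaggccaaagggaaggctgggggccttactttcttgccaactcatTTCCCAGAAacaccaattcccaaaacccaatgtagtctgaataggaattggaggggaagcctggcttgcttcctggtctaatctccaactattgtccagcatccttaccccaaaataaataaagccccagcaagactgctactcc
Fgb: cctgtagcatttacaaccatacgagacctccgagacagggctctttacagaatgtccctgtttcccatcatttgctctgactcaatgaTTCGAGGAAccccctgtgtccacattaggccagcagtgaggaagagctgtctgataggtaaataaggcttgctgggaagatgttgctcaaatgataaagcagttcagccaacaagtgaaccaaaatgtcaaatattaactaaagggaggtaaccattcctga
The motif begins 100 bases before the start in Csn1s1, 93 in Csn2, 145 in Glycam1 and 162 in Fgb. It was not found in these windows of Csn1s2a, Wap, Lalba, Cel and Wfdc18, so 3 of the 8 milk protein genes with a promoter in the table held it. Of 12290 tested genes with a promoter there, 7.25% held it, against 9.18% of 98 genes higher in pregnancy and 7.26% of 358 lower. A match is a description of letters and not a bound site.

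Some genes of milk fat rose and most did not pass. The list of triglyceride and milk fat globule genes had 5 of 20 higher and 1 lower (0.819% and 3.01% of all genes), with a median difference of 1.81. With the replicate block 11 were higher and 1 lower (2.87% and 8.09% of all genes). Without the day-16 or the day-19 array the count fell from 5 to 2, and without the day-10 replicate 2 array to 3. Fabp3, the fatty acid binding protein of lactating cells, read 4.88, 4.05 and 4.45 in virgins and 8.56, 10.93, 13.70 and 14.02 in pregnancy (7.34 ± 0.71, adjusted p = 0.000256). Its rise continued from day 10 to days 16 and 19 and was the largest of the list. A probe set of Fabp3 with lower signal gave 2.96. Muc15, a membrane mucin of the fat globule, rose by 4.0 ± 0.88 (adjusted p = 0.0274) from 8.02 to 10.50 in virgins to 12.17 to 13.49. Muc1, another globule mucin, rose by 2.76 ± 0.53 (adjusted p = 0.0149). Lpl, the lipase that releases fatty acids from plasma lipoproteins, read 9.35, 8.84 and 4.79 in virgins and 9.46, 11.18, 13.03 and 13.42 in pregnancy (4.11 ± 1.0, adjusted p = 0.0423). Xdh, an enzyme that is also a structural part of the globule coat, read 7.46 to 8.97 and then 9.13, 10.42, 12.40 and 12.34 (2.87 ± 0.65, adjusted p = 0.0318). Lpl and Xdh were chosen after their values were seen. The adjusted p of Muc15, Muc1, Lpl and Xdh rose above 0.05 in 1 or more of the fits without an array, to at most 0.0789, 0.052, 0.164 and 0.12. The arrays in question were day 19 for Muc1, both 9-week arrays, day 16 and day 19 for Xdh, the 3-week array, 9-week replicate 1, day-10 replicate 2 and day 16 for Muc15, and 9-week replicate 2, day-10 replicate 2, day 16 and day 19 for Lpl.

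Plin2, which coats lipid droplets, and Btn1a1, the butyrophilin of the globule coat, did not pass, with 1.98 ± 0.64 (adjusted p = 0.13) and 3.64 ± 1.14 (adjusted p = 0.115). With the replicate block their adjusted p was 0.0217 and 0.000173. Dgat2, an enzyme of the last step of triglyceride synthesis, fell by 2.57 ± 0.48 (adjusted p = 0.0124). It read 10.10, 9.53 and 11.68 in virgins and 7.83, 8.95, 7.57 and 7.12 in pregnancy, so the groups did not overlap.

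Fatty acid synthesis had 3 of 19 genes higher and 0 lower (0.819% and 3.01% of all genes), with a median of 0.76. Thrsp, a regulator of lipogenesis, read 2.52, 2.1 and 3.08 in virgins, 3.38 and 8.64 at day 10, 12.75 at day 16 and 11.28 at day 19 (6.45 ± 1.24, adjusted p = 0.0146). The day-10 replicate 1 array stood just above the virgins and the other day-10 array well above them, and the adjusted p was 0.0802 without the day-16 array. Olah, the thioesterase that ends synthesis at medium chain length in milk, read 7.14, 7.70 and 3.65 in virgins and 7.60, 10.06, 12.40 and 12.39 in pregnancy (4.45 ± 1.01, adjusted p = 0.032). Acaca, the carboxylase of the committed step, read 8.59, 8.12 and 9.17 and then 8.97, 10.57, 12.20 and 11.31 (2.14 ± 0.48, adjusted p = 0.031). Both genes overlapped between groups only through the day-10 replicate 1 array. The call for Olah was lost without the 9-week replicate 2, day-16 or day-19 array, with an adjusted p of up to 0.11, and that for Acaca without the 3-week, 9-week replicate 1, day-16 or day-19 array, with an adjusted p of up to 0.159. Fasn, the synthase itself, differed by 1.40 ± 0.45 (adjusted p = 0.127), and Fads1 and Fads2, the desaturases of polyunsaturated fatty acids, by 3.70 ± 1.16 (adjusted p = 0.115) and 2.77 ± 0.82 (adjusted p = 0.0969). With the replicate block Fads1 and Fads2 passed, at 8.74e-05 and 0.00133, and the list count was 6. Another probe set of Fads1 gave -0.84. The count was 0 without the day-16 array, 1 without the day-19 array and 2 without the 3-week or either of the 9-week arrays. None of 14 cholesterol synthesis genes passed, with a median of -0.03. Fasn, Fads1, Plin2 and Btn1a1 were chosen after their values were seen.

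**Figure D3:**
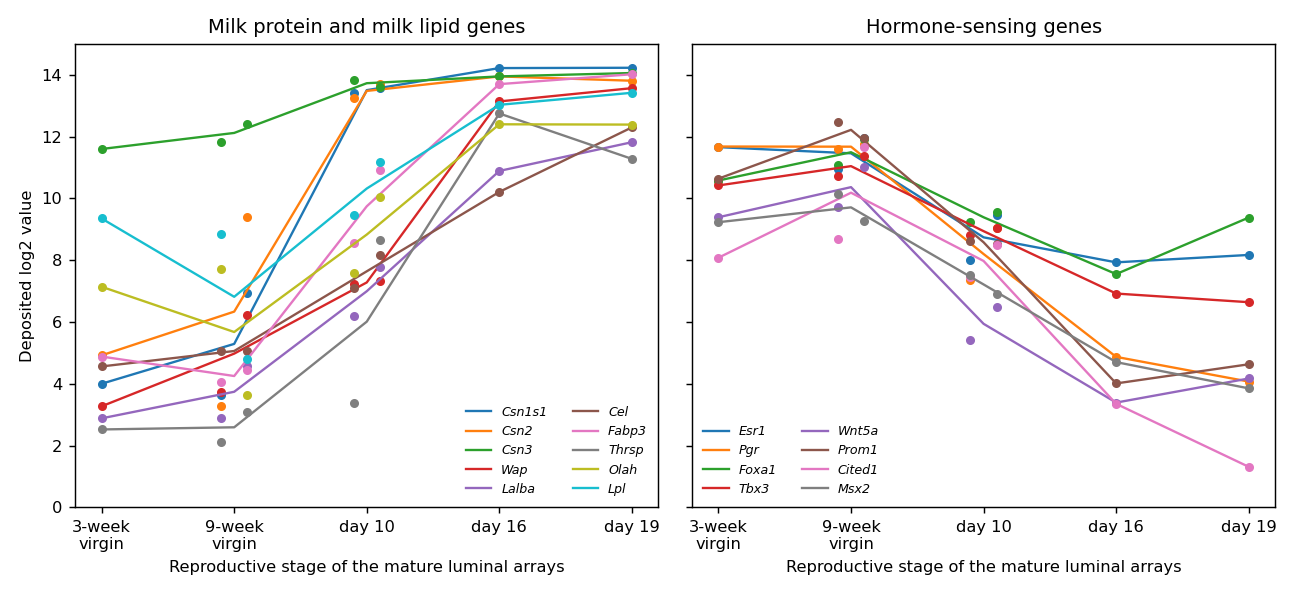
Deposited log2 value (vertical axis) of 10 milk protein and milk lipid genes (left) and 8 hormone-sensing genes (right) by reproductive stage (horizontal axis, not to time scale). Points are single mature luminal arrays and lines join the stage means; 9-week virgin and day 10 have 2 arrays and the other stages 1. Csn1s1 and Csn2 were at 13.25 or more by day 10, Wap reached 13.14 at day 16, and Pgr fell from 11.60 or more in virgins to 4.07 at day 19.

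Of 10 lactose and glucose supply genes only Lalba passed, and with the replicate block B4galt1 was also higher and Pgm2 and Hk2 were lower. B4galt1, the galactosyltransferase partner of Lalba, had a difference of 0.84 ± 0.26 (adjusted p = 0.107, and 0.0401 with the replicate block). Of 17 ion and water transport genes 2 were higher and 3 lower (0.819% and 3.01% of all genes), with Car2 and Aqp5 added by the block. Slc30a2, the zinc exporter of milk, read 2.02, 2.69 and 4.5 in virgins and 4.35, 5.43, 7.96 and 8.06 in pregnancy (3.38 ± 0.60, adjusted p = 0.00973), and its groups overlapped between the 9-week replicate 2 and day-10 replicate 1 arrays. Slc20a1, a phosphate transporter chosen after its values were seen, rose by 1.43 ± 0.33 (adjusted p = 0.0342). That call was lost without the 3-week, 9-week replicate 2, day-10 replicate 1, day-16 or day-19 array, with an adjusted p of up to 0.104. Scnn1a, the alpha subunit of the epithelial sodium channel, fell by 4.02 ± 0.59 (adjusted p = 0.0035), from 9.13 to 10.93 in virgins to 5.25 to 7.69. Slc5a5, the sodium iodide symporter, read 11.16, 12.59 and 12.30 in virgins and 7.08, 7.90, 8.12 and 9.99 in pregnancy (-3.74 ± 0.62, adjusted p = 0.00736). Slc12a2, the basolateral chloride cotransporter, fell by 1.18 ± 0.20 (adjusted p = 0.00809), with an adjusted p of 0.0548 without the day-16 array. Aqp5, a water channel chosen after its values were seen, read 11.42 to 13.00 in virgins and 8.84 to 10.85 in pregnancy, but did not pass (-2.19 ± 0.59, adjusted p = 0.0676, and 0.0198 with the block). Of 17 amino acid transporters 0 were higher and 2 lower. These were the cationic amino acid transporter Slc7a2 (-4.17 ± 0.42, adjusted p = 0.000331) and the taurine transporter Slc6a6 (-2.46 ± 0.44, adjusted p = 0.0106), and the block also called the glutamine transporter Slc1a5 lower (adjusted p = 0.0134).

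Most genes of the hormone-sensing list were lower in pregnancy, with 10 negative and 3 positive differences. The list was chosen with earlier results of these data known, and it was not tested as a set. Of 13 genes for hormone receptors, their cofactors and the paracrine factors of the luminal layer, 8 were lower and 0 higher (3.01% of all genes were lower), with a median of -3.13, and leaving out single arrays gave between 6 and 8 lower. The replicate block called 9 lower, the added gene being Greb1, a target of Esr1. Pgr, the progesterone receptor, read 11.68, 11.60 and 11.75 in virgins, 7.37 and 9.03 at day 10, 4.87 at day 16 and 4.07 at day 19. The virgin arrays lay close together and every pregnancy array was lower, by 5.34 ± 0.72 on average (adjusted p = 0.00185). Of 2 further probe sets of Pgr with lower signal the differences were -2.91 and -1.42. Esr1, the oestrogen receptor alpha, read 11.66, 10.95 and 11.97 in virgins and 8.02, 9.46, 7.93 and 8.17 in pregnancy (-3.13 ± 0.41, adjusted p = 0.00154). It had reached its low level by day 10, with the day-10 replicate 2 array highest of the 4. Foxa1, the pioneer factor that opens sites for Esr1, read 10.58, 11.08 and 11.91 and then 9.23, 9.55, 7.55 and 9.38 (-2.26 ± 0.37, adjusted p = 0.00655). Tbx3, a T-box factor of hormone-sensing cells, fell by 2.98 ± 0.37 (adjusted p = 0.00127). Exact two-sided permutation tests of 4 against 3 arrays cannot go below 0.0571, and Pgr, Esr1 and Foxa1 had that p, as did Csn2, Csn3, Wap and Lalba (0.139 adjusted over the 17 genes tested so).

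Among the paracrine and surface genes of the same list, Wnt5a, a Wnt ligand that restrains ductal growth, read 9.39, 9.72 and 11.01 in virgins and 5.41, 6.47, 3.39 and 4.17 in pregnancy (-5.18 ± 0.47, adjusted p = 0.000192). Prom1, the surface protein CD133 that marks hormone-receptor-positive luminal cells in the mouse, read 10.64, 12.48 and 11.96 and then 8.62, 8.54, 4.01 and 4.63 (-5.24 ± 0.64, adjusted p = 0.00107). Both were at their lowest in late pregnancy. Cited1, a cofactor of Esr1, and Msx2, a homeobox gene, chosen after their values were seen, also fell, with differences of -4.33 ± 0.71 (adjusted p = 0.00655) and -3.80 ± 0.93 (adjusted p = 0.0446). Cited1 overlapped between groups, since a day-10 array at 8.49 lay above the 3-week array at 8.08, and its adjusted p was 0.0588 without the day-19 array. The call for Msx2 was lost in the fits without the 3-week, either 9-week, the day-10 replicate 2, the day-16 or the day-19 array, with an adjusted p of up to 0.136. Gata3, in contrast, differed by 0.52 ± 0.44 (adjusted p = 0.621).

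Of 17 genes that carry the prolactin signal, 0 were higher and 2 lower, with a median of -0.14. Over all genes 0.819% were higher and 3.01% lower, with a median of -0.19, so 0 higher is close to that share. Stat5a, the transcription factor itself, read 10.71, 12.67 and 12.47 in virgins and 11.45, 11.96, 12.30 and 11.53 in pregnancy (-0.14 ± 0.39, adjusted p = 0.9). Its groups overlapped, and the sign turned with each stage weighted equally and in other settings listed in the closing section. Jak2, the kinase bound to the prolactin receptor, was lower on every pregnancy array, 9.01 to 10.56 against 11.43 to 11.74, by 1.54 ± 0.24 (adjusted p = 0.00493). Cav1, caveolin 1, which is known to hold back prolactin signalling, fell by 2.42 ± 0.35 (adjusted p = 0.00343). Elf5 read 11.28, 7.45 and 8.59 in virgins and 10.52, 11.90, 12.67 and 11.39 in pregnancy. The 3-week array overlapped the pregnancy arrays, and the difference of 2.51 ± 0.73 had an adjusted p of 0.0882, and of 0.013 with the replicate block. Socs3, a feedback inhibitor of the pathway, differed by -1.90 ± 0.73 (adjusted p = 0.213, and 0.0062 with the block).

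Markers of luminal progenitors moved in both directions, with 2 of 12 higher and 1 lower (0.819% and 3.01% of all genes). Kit, the stem cell factor receptor, read 8.75, 6.33 and 7.52 in virgins and 10.11, 10.55, 9.27 and 9.03 in pregnancy (2.21 ± 0.51, adjusted p = 0.0338). Lmo4, a LIM-domain cofactor, rose by 1.54 ± 0.39 (adjusted p = 0.0492). Both calls were lost when either 9-week array, either day-10 array or the day-16 array was left out, with an adjusted p of up to 0.166 for Kit and 0.212 for Lmo4. Alcam, an adhesion molecule, fell by 2.17 ± 0.37 (adjusted p = 0.00809, and 0.0505 without the 9-week replicate 2 array). Of 19 luminal keratin and junction genes, Krt6a and Krt4 fell and 0 rose, and the replicate block also called Krt7 lower and Ehf higher. Krt6a, a keratin of hyperproliferative and ductal epithelium, read 11.05, 12.76 and 12.32 in virgins and 8.15, 5.86, 1.67 and 6.84 in pregnancy (-6.41 ± 0.74, adjusted p = 0.000752), and its other 2 probe sets gave -5.95 and -5.29. Krt4, a keratin of stratified non-cornified epithelium, fell by 4.72 ± 1.16 (adjusted p = 0.0443). The call for Krt4 held without the day-10 replicate 1 array and was lost without any other 1 of the 7, with an adjusted p of up to 0.146. Krt8 and Krt18, the main luminal keratins, differed by -0.01 ± 0.21 and 0.23 ± 0.37.

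**Figure D4:**
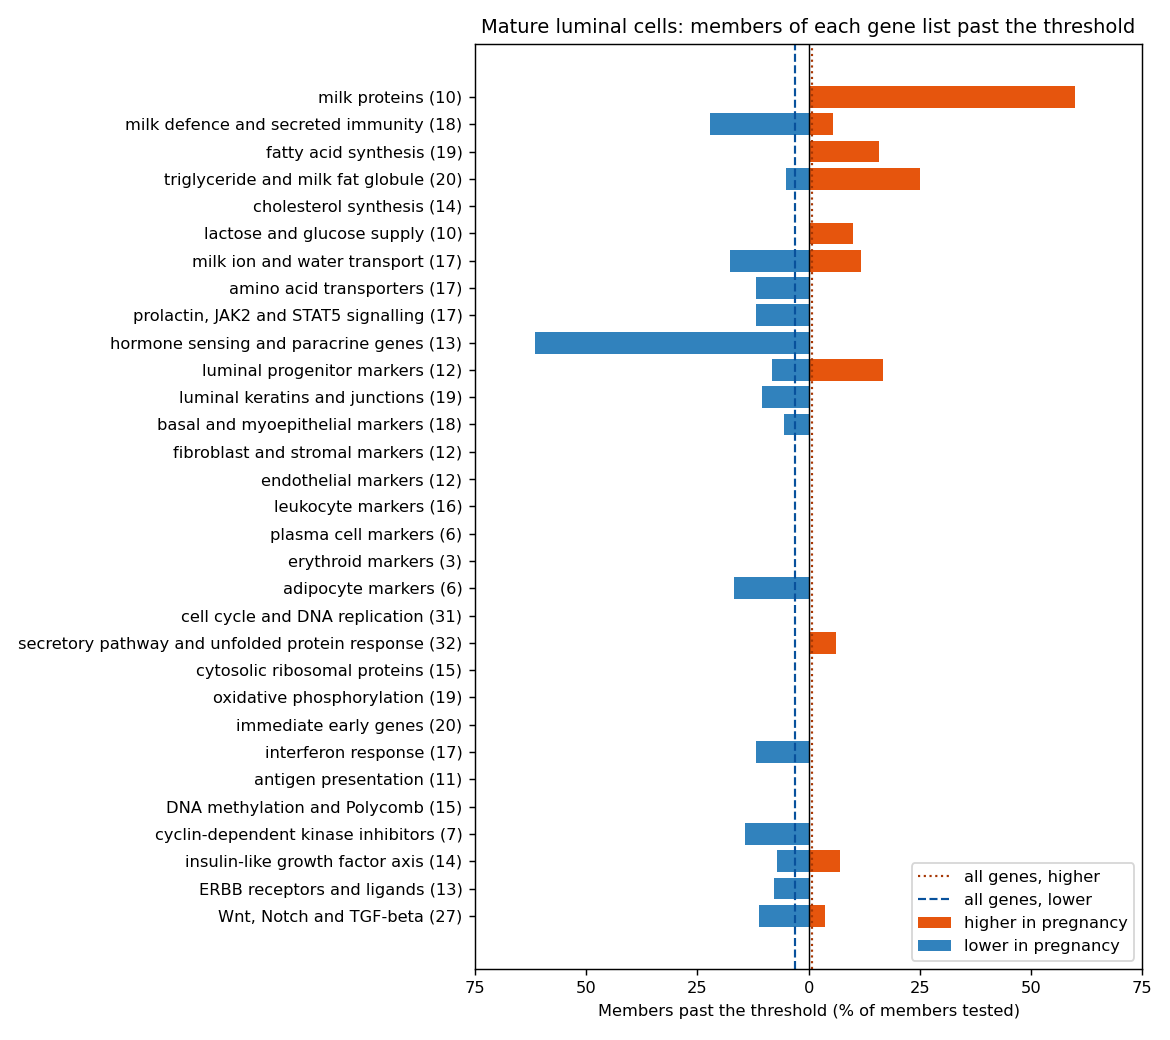
Share of the members of each of 31 gene lists (rows, number tested in parentheses) that passed the threshold in mature luminal cells, in percent of the members tested, higher in pregnancy to the right (orange) and lower to the left (blue). The dotted and dashed lines give the share over all 15378 genes, 0.819% higher and 3.01% lower. The 2 longest bars are 6 of 10 milk protein genes to the right and 8 of 13 hormone-sensing genes to the left.

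Secreted defence genes changed in both directions, 1 of 18 higher and 4 lower (0.819% and 3.01% of all genes). With the replicate block 5 were higher and 4 lower (2.87% and 8.09% of all genes). Lcn2, the iron-binding lipocalin of milk, rose from 10.65, 12.03 and 11.90 in virgins to 13.15, 12.79, 13.14 and 13.93 (1.73 ± 0.27, adjusted p = 0.00493). Saa1 and Saa2, acute phase apolipoproteins, and Lbp, which binds bacterial lipopolysaccharide, were highest on the day-19 array, at 13.55, 13.47 and 12.08. They did not pass (adjusted p = 0.201, 0.227 and 0.0553), and they did with the replicate block (0.0169, 0.0178 and 0.00144), and they were chosen after their values were seen. Dmbt1, a scavenger receptor glycoprotein that binds bacteria, read 11.50, 13.13 and 12.34 in virgins and 1.04, 3.42, 1.76 and 4.84 in pregnancy (-9.56 ± 0.88, adjusted p = 0.000202). Fgb read 11.05, 11.96 and 12.99 and then 4.18, 5.65, 3.34 and 3.23 (-7.90 ± 0.54, adjusted p = 3.83e-05). Low array values include background, so the size of these falls is not an exact fold. With values under an array's median raised to that median, Dmbt1 differed by -7.59 and Fgb by -7.16. Ctse, the protease cathepsin E, fell by 7.10 ± 0.69 (adjusted p = 0.000256), but another probe set with lower signal gave 1.3. Wfdc2, a whey-domain protein chosen after its values were seen, fell by 3.91 ± 0.72 (adjusted p = 0.0114, and 0.0618 without the day-16 array).

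Several of the largest falls lay outside the lists. Ido1, the enzyme that breaks down tryptophan, read 7.81 on the 3-week array and 12.46 and 12.70 on the 9-week arrays, then 2.79, 2.94, 1.79 and 2.82 in pregnancy (-8.40 ± 0.67, adjusted p = 0.000115). Every pregnancy array lay far below the lowest virgin array. Nrxn3, a neurexin adhesion gene, fell by 6.96 ± 0.59 (adjusted p = 0.000153), Kif5c, a kinesin motor, by 6.80 ± 0.59 (adjusted p = 0.000153), and Ffar4, a receptor for long-chain fatty acids, by 6.36 ± 0.55 (adjusted p = 0.000153). Sgsm1 was at 0 on the day-16 and day-19 arrays and between 7.83 and 10.24 in virgins. With values under an array's median raised to that median, Ido1, Nrxn3, Kif5c, Ffar4 and Sgsm1 differed by -6.34, -4.66, -5.75, -4.82 and -4.47. Other probe sets gave -7.40 to -1.42 for Nrxn3, -4.41 to -1.99 for Kif5c and -3.93 to -1.41 for Sgsm1. Fam25c fell by 6.91 ± 0.86 (adjusted p = 0.00127) and Smim38 by 6.33 ± 1.17 (adjusted p = 0.0116, and 0.0501 without the 9-week replicate 2 array). Dock2, a guanine exchange factor known from leukocytes, read 10.20, 7.53 and 9.84 in virgins and 0.00, 6.08, 3.27 and 0.08 in pregnancy (-6.83 ± 1.15, adjusted p = 0.00758). With low values raised in the same way Dock2 differed by -4.24, and other probe sets of it gave -3.18 to -0.74. Its highest pregnancy value was on the day-10 replicate 2 array, which also had the highest leukocyte mean of the 4, and the part of those cells was not tested.

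Outside milk genes, the largest rises were in Timd2, Bcl2l15, Col9a1, Cyp24a1, Tmc5 and Muc4. Timd2, a receptor for H-ferritin, read 2.33, 2.91 and 2.40 in virgins and 7.32, 8.58, 9.91 and 9.99 in pregnancy (6.40 ± 0.87, adjusted p = 0.00198). Bcl2l15, a Bcl-2 family gene, read 2.99, 5.67 and 3.48 and then 8.36, 9.72, 11.43 and 11.03 (6.09 ± 0.77, adjusted p = 0.00132). Both rose from day 10 to late pregnancy. Col9a1, a chain of type IX collagen, rose by 5.06 ± 0.60 (adjusted p = 0.000842), and Muc4, a membrane mucin that binds Erbb2, by 4.86 ± 0.72 (adjusted p = 0.00381). Cyp24a1, the hydroxylase that inactivates vitamin D, rose by 5.04 ± 0.99 (adjusted p = 0.0162), from 3.30 to 4.87 in virgins to 8.04, 9.55, 8.69 and 11.00. Another probe set of Cyp24a1 gave 1.67. Tmc5 rose by 4.98 ± 0.94 (adjusted p = 0.0131). Without the 9-week replicate 1 array the adjusted p of Cyp24a1 was 0.0634 and that of Tmc5 0.0529.

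Growth factor genes gave single calls. Igf2, the fetal insulin-like growth factor, was high at day 10 only, with 9.54 and 10.08 against 3.40 to 4.54 in virgins, 5.71 at day 16 and 4.21 at day 19 (3.46 ± 0.70, adjusted p = 0.0185). Another probe set of Igf2 differed by -0.09, and the call was lost without either 9-week or either day-10 array, with an adjusted p of up to 0.12. Rspo1, a secreted enhancer of Wnt signalling made by luminal cells, read 5.85, 5.46 and 6.10 in virgins and 8.89, 11.36, 11.63 and 7.21 in pregnancy (3.97 ± 0.59, adjusted p = 0.00393). It was highest on the day-10 replicate 2 and day-16 arrays. Stc2, a stanniocalcin that inhibits the cleavage of IGF-binding proteins, fell by 3.68 ± 0.55 (adjusted p = 0.00382). In the Wnt, Notch and TGF-beta list 1 of 27 genes was higher and 3 lower (2 and 4 with the replicate block), against 0.819% and 3.01% of all genes without the block. Besides Rspo1 and Wnt5a these were Jag1, a Notch ligand (-1.58 ± 0.39, adjusted p = 0.0442), and Id3, a target of BMP signalling (-2.06 ± 0.40, adjusted p = 0.0149). Of 13 ERBB receptors and ligands the ligand Epgn passed (-2.34 ± 0.48, adjusted p = 0.0197). The replicate block also called the ligands Tgfa and Nrg1 lower (adjusted p = 0.012 and 0.0238, against 0.0503 and 0.105 without it). Without the 3-week array the adjusted p of Id3 was 0.0558. The calls for Jag1 and Epgn were lost without either 9-week or the day-16 array, for Jag1 also without the 3-week or the day-19 array, with an adjusted p of up to 0.386 and 0.111.

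Cell cycle genes were high at days 10 and 16 and low at day 19. The mean of 31 genes was 8.25 on the 3-week array, 6.86 and 7.45 on the 9-week arrays, 8.54 and 8.95 at day 10, 8.79 at day 16 and 6.18 at day 19. Mki67, the proliferation marker, read 9.24, 6.98 and 7.09 in virgins and 9.63, 10.25, 10.21 and 6.79 in pregnancy (1.45 ± 0.64, adjusted p = 0.289). The day-19 array was the lowest of the 7, and 0 of the 31 genes passed in either direction, with 1, the spindle motor Kif11, in the fit with the replicate block. Of 7 cyclin-dependent kinase inhibitors, Cdkn1a, the p21 inhibitor, fell by 1.40 ± 0.31 (adjusted p = 0.0305), a call lost without the 3-week, 9-week replicate 1 or day-16 array, with an adjusted p of up to 0.237. Cdkn1b, the p27 inhibitor, differed by 0.26 ± 0.24 (adjusted p = 0.654), and Cdkn2c was called higher with the replicate block only (adjusted p = 0.0347).

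Of 32 genes of the secretory pathway and unfolded protein response, Ssr2 and Ssr4, subunits of the translocon-associated complex that helps proteins enter the endoplasmic reticulum, rose by 1.54 ± 0.36 (adjusted p = 0.0367) and 1.18 ± 0.26 (adjusted p = 0.0283). Ssr2 read 8.67, 10.72 and 10.55 in virgins and 11.21 to 11.84 in pregnancy, and Ssr4 read 11.38 or less and then 11.43 to 12.70. Both calls were lost without the 3-week, the day-16 or the day-19 array, and for Ssr2 also without 9-week replicate 2 or either day-10 array, with an adjusted p of up to 0.407 and 0.269. The replicate block also called Sec11c higher and Dnajc3 lower (adjusted p = 0.0457 and 0.042). Of 17 interferon response genes 2 were lower (3.01% of all genes), and Oasl2 with the block only (adjusted p = 0.0317). The 2 lower without the block were Usp18, which restrains interferon signalling (-3.53 ± 0.79, adjusted p = 0.0291), and Gbp2, a guanylate-binding protein (-1.91 ± 0.37, adjusted p = 0.014). The adjusted p of Gbp2 was 0.0547 without the 3-week array, and that of Usp18 was up to 0.103 without either 9-week, the day-16 or the day-19 array. In the adipocyte list Pparg, a nuclear receptor of lipid metabolism, fell by 3.68 ± 0.83 (adjusted p = 0.0304), and the fit without day-10 replicate 2 was the only one without an array that kept the call (adjusted p up to 0.112). None of 15 DNA methylation and Polycomb genes passed. Dnmt1, the maintenance methyltransferase, differed by -0.15 ± 0.36 (adjusted p = 0.885) and Dnmt3a by -0.55 ± 0.37 (adjusted p = 0.506). None of 15 ribosomal protein, 19 oxidative phosphorylation, 20 immediate early or 11 antigen presentation genes passed in limma, with medians of 0.23, 0.11, -0.20 and -0.11. The replicate block called 0 of the first 3 of these lists and 0 of the methylation list, and called the antigen presentation genes H2-Aa and H2-DMa lower. Over all genes 2506 had an unadjusted p under 0.05.

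Most called genes lay outside the virgin range on both day-10 arrays. Both day-10 arrays lay above all virgin arrays for 107 of the 126 higher genes and below them for 424 of the 463 lower genes. The day-16 and day-19 arrays both lay above both day-10 arrays for 63 of the higher genes and below them for 13. For the lower genes they both lay further down than both day-10 arrays for 245 and higher for 9. These counts describe genes chosen with the same arrays, day 10 among them, and carry no test. They were not taken over all genes.

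The same pregnancy effect, taken over days 10 and 16 against 3 and 9 weeks with each stage weighted equally, was compared between cell types by an interaction in the model. The mature luminal effect was below the stem cell effect for 26 genes (0.169% of those tested) and above it for 1, Esm1 (0.0065%). For Esm1, a gene of endothelial cells, the effect was 0.82 in mature luminal and -4.70 in stem cells. The mean of the 12 endothelial markers moved alike on the stem arrays, from 9.20 to 11.32 in virgins to 6.25 to 6.85 in pregnancy, and its part in the difference was not tested. With the replicate block 359 were below and 80 above. Without the day-10 mature luminal replicate 1 array 5 genes passed, without replicate 2 12, and without the 9-week mature luminal replicate 2 array 17. Wnt5a read 5.41, 6.47 and 3.39 on the mature luminal arrays of days 10 and 16 and 9.45, 9.18 and 9.03 on the stem arrays of those days, against 8.48 to 10.34 on the virgin stem arrays. Its effect was -5.21 in mature luminal and -0.02 in stem cells, a difference of -5.20 ± 0.72 (adjusted p = 0.0279). Fgg, the fibrinogen gamma chain, chosen after its values were seen, fell by 5.86 in mature luminal and by 1.56 in stem cells (difference -4.30 ± 0.57, adjusted p = 0.0279). Wnt5a and Fgg also fell in luminal progenitors, with effects of -2.76 (adjusted p = 0.0347) and -4.54 (adjusted p = 0.00152). Their differences between mature luminal cells and luminal progenitors did not pass (adjusted p = 0.186 and 0.397). The naming rule gave Plxdc1, a transmembrane receptor (-6.86 ± 1.1), the potassium channel Kcnma1 (-6.42 ± 0.90), Efcab15 (-6.19 ± 0.93), the Wnt5a receptor Ror2 (-5.76 ± 0.94), the sorting receptor Sorcs2 (-5.60 ± 0.73) and the oxidase Aox1 (-5.59 ± 0.83), with adjusted p between 0.0279 and 0.0387. The effect of Plxdc1 was -4.37 in mature luminal and 2.49 in stem cells (adjusted p = 0.0848 for the latter), that of Efcab15 -3.77 and 2.42 (adjusted p = 0.0538), and that of Sorcs2 -3.33 and 2.27 (adjusted p = 0.0274). Another probe set of Ror2 gave 0.33 for pregnancy against virgin in mature luminal cells. Plxdc1 was low in these cells, at 4.23 and 4.70 on the 9-week and 1.05 to 3.33 on the pregnancy arrays. With values under an array's median raised to that median, its difference there was -1.11, against -3.83. Its interaction with stem cells still passed with raised values (limma, adjusted p = 0.0041).

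Several genes named above, casein genes among them, also passed in the other cell types. Dmbt1 had an effect of -7.56 in stem cells and -8.44 in luminal progenitors (adjusted p = 0.002 and 0.00301). For Ido1 the effects were -6.36 and -7.0 (adjusted p = 0.00165 and 0.00181), and for Fgb -6.84 and -7.47 (0.000767 and 0.000852). For Foxa1 they were -2.32 and -2.48 (0.00873 and 0.021), and for Wap 5.92 and 6.7 (0.00168 and 0.00181). Tbx3 did not pass in stem cells (-0.58, adjusted p = 0.426). Csn1s1 read 11.59, 11.94 and 13.72 on the pregnant stem arrays against 4.72 to 7.16 on the virgin stem arrays, an effect of 7.01 (adjusted p = 0.00353), and its effect in luminal progenitors was 6.47 (adjusted p = 0.0176). Csn1s2a had an effect of 6.77 in stem cells (adjusted p = 0.0339) and 7.38 in luminal progenitors (adjusted p = 0.0609). Csn2 did not pass in either, with 7.02 (adjusted p = 0.0782) and 7.68 (adjusted p = 0.113), nor did Csn3, with 0.57 (adjusted p = 0.182) and 0.18 (adjusted p = 0.742). The mature luminal effect of Csn1s1 differed from these by 2.21 ± 1.41 (adjusted p = 0.649) and 2.75 (adjusted p = 0.489), which does not show that they were alike. Esr1 fell by 2.79 in stem arrays (adjusted p = 0.00567) and its effect in luminal progenitors was -1.85 (adjusted p = 0.0766), and the difference between mature luminal and stem cells was -0.43 ± 0.62 (adjusted p = 0.876). Pgr fell by 3.85 in luminal progenitors (adjusted p = 0.0485), and its effect in stem cells was -2.25 (adjusted p = 0.115).

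Against luminal progenitors the mature luminal effect was lower for 60 genes (0.39%) and higher for 0, and with the replicate block lower for 464 and higher for 21. In 52 of the 60 the luminal progenitor effect was positive. The count was 0 without the day-10 mature luminal replicate 1 array, 14 without the 9-week mature luminal replicate 1 array and 106 without day-10 replicate 2. In the fit of all arrays 1915 genes had an unadjusted p under 0.05. Leading genes were the peptidase Enpep (-8.48 ± 1.29), the homeobox gene Meis2 (-8.11 ± 1.5), the matrix gene Ccdc80 (-7.97 ± 1.13), the dehydrogenases Adh1 (-7.86 ± 1.44) and Aldh1a1 (-7.36 ± 1.26), and H2-Q10 (-7.42 ± 0.95), with adjusted p between 0.0376 and 0.0477. H2-Q10 was low in mature luminal cells, at 3.12 and 4.54 on the 9-week and 0.86 to 2.48 on the pregnancy arrays. With values under an array's median raised to that median, its difference there was -0.62, against -2.75. Its interaction still passed with raised values (limma, adjusted p = 0.003). Ccdc80 read 9.16 and 9.64 on the luminal progenitor arrays of days 10 and 16, against 4.90 to 7.51 on the 4 virgin ones and 0.95 to 4.79 on the mature luminal arrays of those days. The mean of the 12 fibroblast and stromal markers moved alike, at 9.87 and 10.14 on the pregnant luminal progenitor arrays against 6.27 to 8.57 on the virgin ones, and so did the leukocyte mean, at 8.20 and 7.75 against 3.60 to 6.22. The part of these cells in the difference was not tested.

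**Figure D5:**
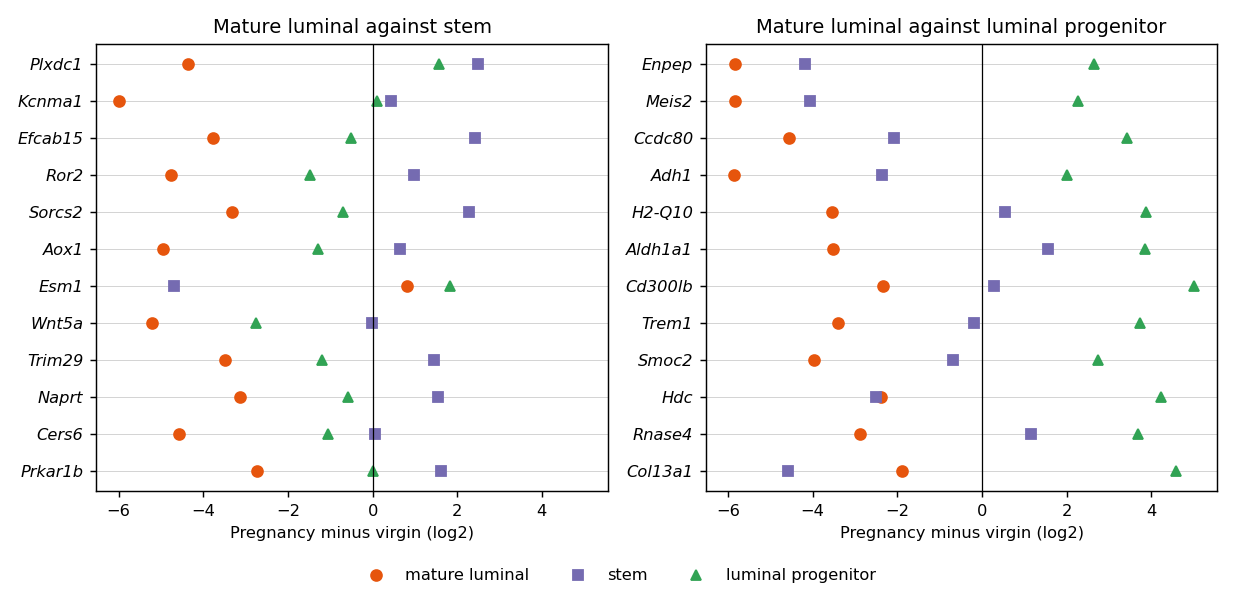
Pregnancy minus virgin effect on the log2 scale (horizontal axis, days 10 and 16 against 3 and 9 weeks) of the 12 genes with the largest difference between mature luminal and stem cells (left) and between mature luminal cells and luminal progenitors (right), with the effect in each of the 3 cell types. Error bars are left out; the standard error of a difference between cell types was 0.72 to 1.1 for the genes from Plxdc1 to Wnt5a on the left. In every row of the left panel but Esm1 the mature luminal symbol lies below the stem symbol, as for Wnt5a at -5.21 and -0.02.

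The 1 retired breeder array of mature luminal cells, from mice that had been through earlier pregnancies, was not part of the comparison. For 79 of the 126 higher genes it read within or below the range of the virgin arrays, and for 391 of the 463 lower genes within or above it. Pgr read 11.95, Wnt5a 11.23 and Dmbt1 11.53 on it, in or near the virgin range, while Csn1s1 read 8.84 and Muc15 11.41, above every virgin array. The same counts were not taken over all genes, and these genes were chosen for virgin and pregnancy values that lay apart. Retired breeders differ from virgins in age as well as parity, and with 1 array there was no test.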

How the data were processed

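The series holds 23 Affymetrix arrays in 16 groups, 7 of 2 arrays and 9 of 1. The authors deposited 1 table of log2 values for 45101 probe sets; how they were normalized was not given in any source used. Arrays were grouped by their labels. The comparison to describe, its members and the gene lists were chosen with earlier results of these data known. Of the probe sets, 34945 had 1 gene symbol in the platform annotation, 932 several and 9160 none, besides 64 controls. For each of 18193 genes the probe set of highest mean signal was used, and 15378 genes above the 40th percentile of their array on at least 2 arrays were kept.

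With limma 3.58.1 (R 4.3.3), 1 mean per group was fitted over all 23 arrays, so that groups of 1 array borrow the spread of the others. The contrast took the mean of the 4 pregnancy arrays against that of the 3 virgin arrays, with an intensity trend, Benjamini-Hochberg adjustment over all genes and a threshold of 0.05. Errors after ± are standard errors of this fit. On simulated data 25% of log2 changes of 2 and 84% of changes of 4 were recovered, and 6 unchanged genes were called. The simulated arrays had independent noise and the same shift on every pregnancy array. The real arrays share deviations by replicate number, so these rates need not hold for them.

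Replicate numbers in the titles pair the arrays. Deviations of same-numbered arrays correlated above 0.1 in 21 of 21 pairs of groups (0.303 to 0.682), so a fit with a block of 2 levels, arrays titled replicate 1 against all others, is given beside the lists and genes whose calls it changes. The unnumbered 3-week and day-16 arrays fall in the second level by this choice and not by their titles, and a fit on numbered arrays only is among the alternatives.

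The genes named are up to 12 per direction with the largest difference that passed, had groups that did not overlap, lay above the median array median (4.87) in the higher group and moved the same way within both sets of arrays, up to 4 of smallest p per list, up to 6 per interaction and a fixed set of 17. Alternatives were quantile normalization, other filters, a floor at the array median, the mean of probe sets, equal weight per stage, no trend, a fit on 7 arrays, the block and each array left out. Leaving out the 3-week and day-10 replicate 2 arrays together was chosen after seeing the data. Promoters came from RefSeq. Python 3.11.15, pandas 2.3.3, scipy 1.17.1 and matplotlib 3.10.9 were used.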

Additional observations from a re-analysis of the deposited data

Results flagged for a closer look

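Among the 74 genes examined, 6 had 1 of the 4 pregnancy arrays far from the other 3 by Dixon's criterion (0.829 for 4 values), which chance gives in about 1 of 20 groups. The day-16 array was the lowest for Ido1 (1.79), Slc7a2 (5.06) and Foxa1 (7.55). The day-10 replicate 2 array was the highest for Fam25c (5.55), Esr1 (9.46) and Plxdc1 (3.33). All 6 genes also had this array on the lower side of every virgin array.

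The pregnancy effect differed between mature luminal and stem cells, by the interaction test, by -6.86 for Plxdc1, -6.42 for Kcnma1, -6.19 for Efcab15, -5.76 for Ror2, -5.60 for Sorcs2 and -5.59 for Aox1. Against luminal progenitors it differed by -8.48 for Enpep, -8.11 for Meis2, -7.97 for Ccdc80, -7.86 for Adh1, -7.42 for H2-Q10 and -7.36 for Aldh1a1. For each of these genes but Efcab15, Ror2 and Aox1 the 3-week mature luminal array was above both 9-week arrays. Meis2 read 11.57 against 5.90 and 7.26, and Kcnma1 11.23 against 7.21 and 8.35. The 3-week array had the most signal from other cell types, and the interactions weight its stage equally with 9 weeks. Without it Plxdc1, Enpep, Meis2, Ccdc80, Adh1 and H2-Q10 lost their calls in pregnancy against virgin mature luminal cells.

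The retired breeder array, which the comparison did not use, lay above all 3 virgin arrays for 47 of the 126 genes higher in pregnancy. This count was not taken over all genes.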

How the results depend on the processing

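The comparison of pregnancy with virgin mature luminal cells gave 589 genes, 1686 with the replicate block of 2 levels, 117 in a fit on the 7 mature luminal arrays alone and 319 without the 3-week and day-10 replicate 2 arrays together. Leaving out 1 array gave 300 to 551, lowest without the day-16 array. The stem cell interaction gave 27 genes, 142 with values below the array median raised to it, 439 with the block and 5 to 31 without 1 of the 9-week or day-10 mature luminal arrays, the 4 left out in turn there; no other array was left out for the interactions. The luminal progenitor interaction gave 60, 324, 485 and 0 to 106. The cause of these shifts was not tested. Of 99 named genes that passed, all 99 also passed with the block of 2 levels, 39 in the fit on 7 arrays and 88 with numbered arrays only, and each kept its direction in these fits. Signs turned only for genes that had not passed. With numbered arrays only and a replicate block they were Pdgfra 0.18, Plvap 0.02, Tek 0.10, Pou2af1 0.05, Adipoq 0.30, Cox4i1 -0.17, Dnmt3a 0.01, Dnmt1 0.21 and Glycam1 -0.04, with the block of 2 levels Glycam1 -0.02, with equal weight per stage Stat5a 0.20, with the mean of probe sets Stat5a 0.15 and Krt8 0.06, and without both arrays Dnmt1 0.02. Without 1 array Hbb-b2 ranged from -0.30 to 4.36, Cox4i1 from -0.04 to 0.52, Stat5a from -0.76 to 0.22, Krt8 from -0.04 to 0.01, Dnmt1 from -0.43 to 0.06 and Glycam1 from -0.15 to 0.51. Values near background limit the size of falls, and values near 14.23 that of rises.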

Other observations

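Genes in this paragraph were chosen after their values were seen, and each kept its call without any 1 array. Fgg, the fibrinogen gamma chain, fell by 5.57 ± 0.37 (limma, adjusted p = 3.83e-05), from 12.26 or more in virgins to 9.08 or less. Itih2, a heavy chain of the inter-alpha-trypsin inhibitors that bind hyaluronan, fell by 6.07 ± 0.66 (adjusted p = 0.000506). The coagulation genes F5 and Proc, for factor V and protein C, differed by -3.94 ± 0.60 (adjusted p = 0.00436) and -4.61 ± 0.80 (adjusted p = 0.00849). The antibacterial lectins Reg3b and Reg3g differed by -5.46 ± 0.69 (adjusted p = 0.00132) and -5.13 ± 0.52 (adjusted p = 0.000331). Il33, an alarmin cytokine, read 9.41, 7.58 and 10.37 in virgins and 4.29, 4.03, 2.30 and 3.04 in pregnancy (-5.70 ± 0.74, adjusted p = 0.00156). Lepr, the leptin receptor, differed by -3.51 ± 0.49 (adjusted p = 0.00271) and Fgfr2, a fibroblast growth factor receptor, by -4.07 ± 0.40 (adjusted p = 0.000256). Nrg4, an ERBB4 ligand, read 8.0 to 9.91 in virgins and 3.44 to 3.71 in pregnancy (-5.14 ± 0.59, adjusted p = 0.000748).

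Among genes that rose and were chosen in the same way, Vdr, the vitamin D receptor, read 9.51 to 9.85 in virgins and 11.24 to 12.50 in pregnancy (2.11 ± 0.28, adjusted p = 0.00164). Bmp2, a bone morphogenetic protein, rose by 3.74 ± 0.52 (adjusted p = 0.00257), and Ccl20, a chemokine for cells with Ccr6, by 3.50 ± 0.66 (adjusted p = 0.0132). Fbn2, a fibrillin of the matrix, was highest at day 10, at 9.60 and 11.45, against 3.94 to 5.2 in virgins (3.94 ± 0.60, adjusted p = 0.00444).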
